A study of Mus musculus with 14 samples.

Results

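The loci described here are 10 assembled transcript loci without a gene name, XLOC_021655 to XLOC_021664, among 59796 loci in the gene table of embryonic mouse hippocampus. They were chosen by their numbers, which lie between those of Dscr3 (XLOC_021653) and Kcnj6 (XLOC_021666) and so beside Dyrk1a. Position alone does not set the group. XLOC_021654 and XLOC_021665 are also unnamed and numbered between these genes, but were left outside it. Both overlapped between 189N3 mice and littermates and are described below as its neighbours. The choice was made with the difference between 189N3 mice and their littermates already known, so that difference is described here and not tested. RNA-seq was available for 14 libraries of hippocampus from E16 to E18 embryos, each library taken as 1 sample. The 189N3 comparison had 3 transgenic and 3 wild-type (wt) littermate libraries, and the Dp(16)1Yey/+ comparison had 4 and 4. The 189N3 line is 1 transgenic line that carries an extra copy of the mouse Dyrk1a gene, with sequence on both sides of it, on a bacterial artificial chromosome. The Dp(16)1Yey line carries a duplication of the chromosome 16 region syntenic to human chromosome 21, from Lipi to Zfp295, which includes Dyrk1a and its neighbours. Both lines thus hold an extra Dyrk1a, as an insert with short flanks in one and within the duplicated chromosome segment in the other. The study's methods name C57BL6 among its wild-type mice and list as many embryos per genotype as a group had libraries. The labels do not say for each library that it is a separate embryo, and the p-values measure the spread between these libraries. In the Dp(16)1Yey littermates, replicates 0 and 1 were nearly alike, as were replicates 2 and 3. Their shares of fragments on loci over known exons, opposite strand, were 22.2% and 22.7%, and 16.2% and 16.2%. Whether these 4 libraries are independent was not tested, so tests of 4 against 4 may overstate their number.

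Dyrk1a encodes a dual-specificity protein kinase whose dosage affects brain growth and neuronal differentiation, and it lies within the part of human chromosome 21 long studied in Down syndrome. Dscr3 (named Vps26c in newer annotations) encodes a subunit of an endosomal recycling complex. Kcnj6 encodes a potassium channel that G proteins open. Transcript assembly from RNA-seq reads also yields loci that match no known gene. Such loci can be transcripts between genes, RNA read from the opposite strand of a known gene (antisense RNA), or stretches of repeats, and most have no known function.

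The deposited map gives each locus a class code from Cufflinks and its nearest known gene. Of the 10 loci, 7 had the code for an unknown intergenic transcript, 2 (XLOC_021655 and XLOC_021662) had the code for repeat sequence, and 1 (XLOC_021658) had the code for exonic overlap with a known gene on the opposite strand. Dscr3 was the nearest known gene of XLOC_021655, XLOC_021656 and XLOC_021657, and Dyrk1a that of the other 7, including the locus over its exons. Each of the 10 loci had 1 isoform, whose values equalled those of the locus. The locus numbers run along a strand: 61 named loci of this stretch all lay on the minus strand in GENCODE M21, and their starts were in order for 60 of 60 neighbouring pairs. Dyrk1a itself lies on the plus strand, at chr16:94570010-94695517 in mm10. The interval between Dscr3 and Kcnj6 is chr16:94526831-94748635, or 221.8 kb, and holds 1 annotated gene on the minus strand, Gm41504. The map gives no coordinates of the 10 loci themselves, so neither their exact positions nor their lengths are given here, and levels are compared between libraries and not ranked between loci.

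The libraries held between 20809135 and 29098453 fragments, and 1 fragment was worth between 0.816 and 1.21 units of the gene table, called normalised fragments here. Of 6 hippocampal markers 5 were found, among them Neurod6, a transcription factor of excitatory neurons, at 8965 to 20161 normalised fragments, and Prox1, a transcription factor of the dentate gyrus, at 161 to 856. The summed level of the erythroid markers was lower in the 189N3 libraries (15254 to 24669) than in their littermates (38620 to 61007), and no erythroid marker was at 0. The summed skin markers were at 180 to 252 in 189N3 mice and 250.0 to 1920 in littermates. Over all 14 libraries, the lowest values of Krt5 and of Krt14 were 0. The choroid plexus markers were at 281 to 5714 and 281 to 13927, and the striatum markers at 312 to 866 and 205 to 395. In Dp(16)1Yey/+ mice and their littermates the erythroid sums were 7046 to 55709 and 5173 to 19875. The skin sums there were 179 to 337 and 153 to 226.5. The choroid plexus sums were 177 to 2496.5 and 132 to 1711, and the striatum sums 134 to 697 and 202 to 1215. The part of these markers in the results below was not tested. Bulk libraries cannot tell apart more cells that express a locus from more RNA per cell. Replicate 1 of the 189N3 littermates stood apart from the other 2 littermates at the unnamed loci, as described below, and the ratios of fragments in the 189N3 model are given with and without it.

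In 189N3 mice, the lowest transgenic library exceeded the highest littermate at 9 of the 10 loci. XLOC_021658 was the exception. Over all 35899 loci with a mean of at least 10 normalised fragments, 1.99% were higher without overlap in this comparison; since the 189N3 difference was known when the loci were chosen, nothing is read from the count. Of the 10 loci, 9 passed that filter, and 8 of these were higher without overlap. XLOC_021660 did not pass it. In Dp(16)1Yey/+ mice, 1 of the 10 loci, XLOC_021659, was higher in all 4 transgenic libraries, where 1.72% of 36024 loci were, and 2 of the 10, XLOC_021658 and XLOC_021659, passed the filter. No locus of the whole table passed an adjusted p of 0.05 in Dp(16)1Yey/+ mice (0% called; 1273 loci had an unadjusted p under 0.05 with limma, edgeR called 0 and DESeq2 called 11).

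**Figure D1:**
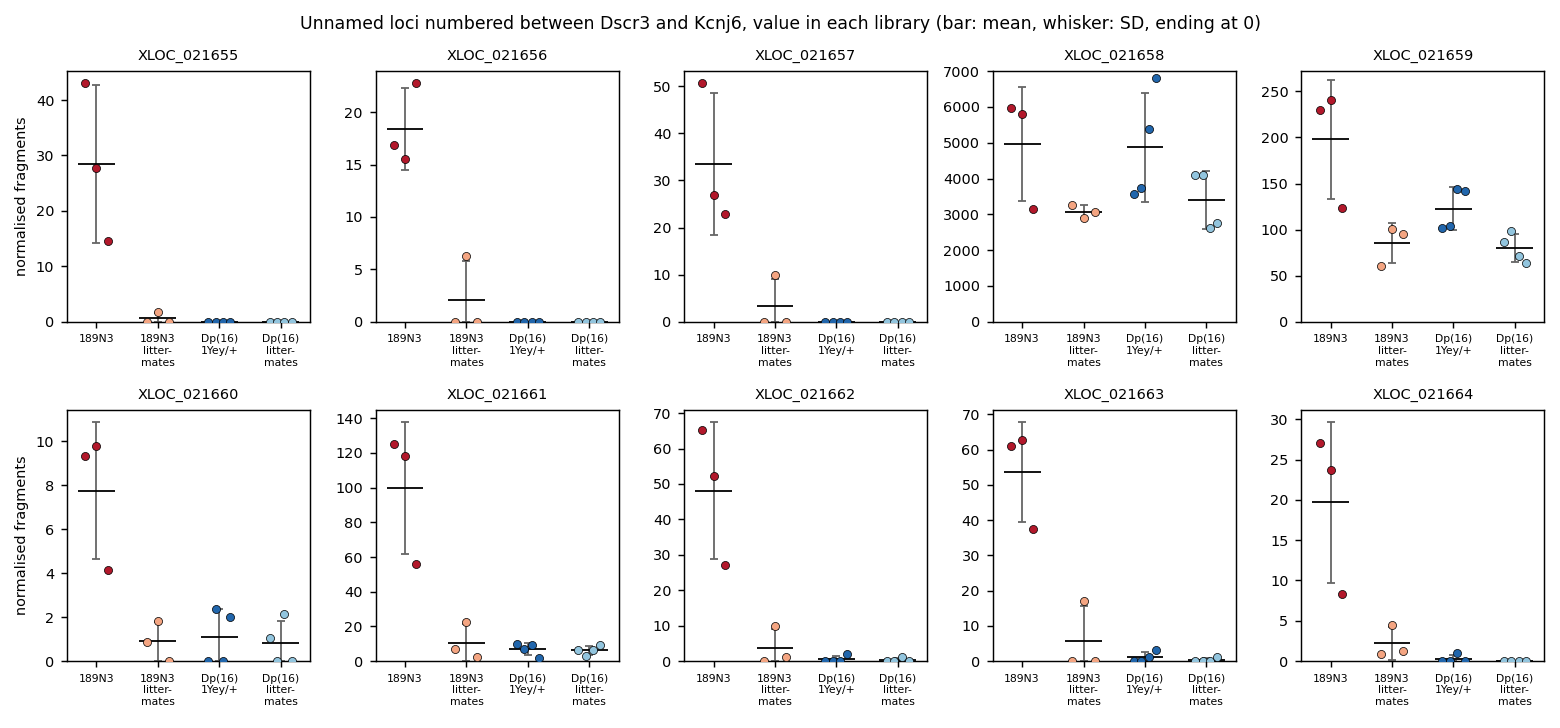
Normalised fragments (vertical axes, each starting at 0) of the 10 unnamed loci in each of the 14 libraries, by group; points are libraries in the order of their replicate numbers, bars are means and whiskers are SDs, ending at 0 where they would pass below it. In 8 of the panels the 189N3 libraries stand above nearly empty columns for both sets of littermates and for the Dp(16)1Yey/+ mice, and replicate 1 of the 189N3 littermates lies between the 189N3 libraries and the other 2 littermates.

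The 3 loci numbered before Dyrk1a were found in 189N3 mice and in 1 littermate library. XLOC_021655, a locus of repeat sequence, had 43.1, 27.7 and 14.5 normalised fragments in the 189N3 libraries, 0, 1.80 and 0 in their littermates, and 0 in all 8 libraries of the Dp(16)1Yey model. XLOC_021656 had 16.9, 15.5 and 22.8 in 189N3 mice against 0, 6.32 and 0 in littermates, and again 0 in all 8. XLOC_021657 had 50.8, 26.9 and 22.8 against 0, 9.93 and 0, and 0 in all 8. None of the 189N3 values overlapped with those of any other group, and the only fragments outside 189N3 mice came from littermate replicate 1. In fragments, XLOC_021655 had 99 in the 3 189N3 libraries and 2 in the littermates, a ratio of 45.4 with an exact 95% counting interval of 12.2 to 380 (380 rests on the 2 fragments). Intervals on fragments cover counting error only. XLOC_021656 (61 against 7 fragments) was 7.99-fold higher, with an interval of 3.65 to 20.7, and XLOC_021657 (115 against 11) was 9.58-fold higher, with an interval of 5.16 to 19.7. Without littermate replicate 1 the other 2 littermates had 0 fragments at all 3 loci. The 189N3 level was then set against a floor of 3 fragments over those littermates. It was 19.4-fold higher at XLOC_021655, 11.95-fold at XLOC_021656 and 22.5-fold at XLOC_021657. These ratios leave out the counting error of the 189N3 fragments and are not lower limits. No fold is given for Dp(16)1Yey/+ mice, where both groups were at 0.

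The 5 loci XLOC_021660 to XLOC_021664, numbered after the locus over Dyrk1a, were also highest in the 3 189N3 libraries. XLOC_021661 had the most fragments of the 5 and was the only one of them found in every library. It had 125, 118 and 56.0 normalised fragments in 189N3 mice, 6.93, 22.6 and 2.42 in littermates, 9.89, 7.05, 9.18 and 2.01 in Dp(16)1Yey/+ mice, and 6.18, 2.97, 6.48 and 9.10 in the littermates of the latter. The 189N3 level was 9.09-fold that of the littermates (interval 6.41 to 13.3), and 20.4-fold (interval 10.96 to 42.9) without littermate replicate 1. In the Dp(16)1Yey model the groups of XLOC_021661 overlapped throughout (exact permutation test, two-sided p = 0.771, 4 against 4 libraries).

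XLOC_021662, the second locus of repeat sequence, had 65.1, 52.2 and 27.0 in 189N3 mice against 0, 9.93 and 1.21 in littermates. XLOC_021663 had 60.9, 62.8 and 37.4 against 0, 17.1 and 0. XLOC_021664 had 27.1, 23.7 and 8.30 against 0.866, 4.51 and 1.21. At all 3 loci the 189N3 libraries stood above every littermate and littermate replicate 1 stood above the other 2. The ratios of fragments were 12.8 (interval 7.11 to 25.2), 8.92 (interval 5.55 to 15.2) and 9.03 (interval 4.16 to 23.3). Without littermate replicate 1 the other 2 littermates had 1, 0 and 2 fragments. The ratio was then 98.2 (interval 17.4 to 3900) at XLOC_021662 and 20.3 (interval 5.41 to 171) at XLOC_021664, on 1 and 2 fragments, under the floor of 3. XLOC_021663 was 36.3-fold higher against that floor, without counting error of the 189N3 fragments. The floor was used only where the littermates had 0, so these ratios are not ranked between loci. Across the 8 libraries of the Dp(16)1Yey model, no library had more than 3.02 normalised fragments at any of these 3 loci, which is within the floor of 3 fragments.

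XLOC_021660 was the 1 locus of the 10 that did not pass the filter in the 189N3 comparison. It had 9.31, 9.79 and 4.15 normalised fragments in 189N3 mice against 0.866, 1.80 and 0 in littermates, or 27 fragments against 3, a ratio of 8.25 with an interval of 2.54 to 42.5. Without littermate replicate 1 it was 27 against 1, a ratio of 15.9 with an interval of 2.62 to 650, on a littermate count under the floor of 3 fragments. In the Dp(16)1Yey model it had 4 fragments in the 4 transgenic libraries and 3 in the 4 littermates.

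Summed over these 8 loci, that is without XLOC_021658 and XLOC_021659, the 189N3 libraries held 398, 337 and 193 normalised fragments and their littermates 8.66, 74.0 and 4.83. Dp(16)1Yey/+ mice held 9.89, 9.40, 11.2 and 9.06, and their littermates 7.21, 2.97, 9.71 and 10.1. The 8 were grouped after their values had been seen, so the sum is a description. The sum was high in the 3 189N3 libraries, intermediate in littermate replicate 1 and between 2.97 and 11.2 in the other 10 libraries, whether or not these carried the duplicated chromosome 16 segment. The 189N3 libraries had 1070 fragments against 96 in the littermates, a ratio of 10.2 (interval 8.28 to 12.7), which became 44.9 (interval 26.7 to 82.5) without littermate replicate 1. In the Dp(16)1Yey model the 4 transgenic libraries had 38 fragments and the 4 littermates 29.

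Littermate replicate 1, labelled wild type, held 82 of the 96 littermate fragments at the 8 loci, and the other 2 held 14. Its level was 23.3% of that in 189N3 mice (interval 18.4 to 29.2) and lay between the 189N3 libraries and both other littermates at 8 of 8 loci. The 8 were grouped after their values had been seen, and the share of all loci in this order was not counted. Nothing is therefore read from that count. The shares of the 8 loci in its 82 fragments were also set beside those in 189N3 mice. XLOC_021661 took 30.5% of the 82 fragments (exact interval 20.8 to 41.6) and 32.4% of the 1070 of 189N3 mice, and XLOC_021663 took 23.2% (interval 14.6 to 33.8) and 17.3%. For 7 of the 8 loci the 189N3 share lay within the exact interval of littermate replicate 1. At XLOC_021655 it did not, with 2.44% (interval 0.297 to 8.53) in the littermate and 9.25% in 189N3 mice. The intervals are wide, as each rests on 2 to 25 fragments of the locus, and the 189N3 share was taken without its own error. The 8 loci were grouped on these same values, so nothing is read from the 7 of 8. Dyrk1a in this library was at 2977 normalised fragments, above the other 2 littermates (2448 and 2126) and below every 189N3 library. Where the fragments of this library came from was not tested.

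**Figure D2:**
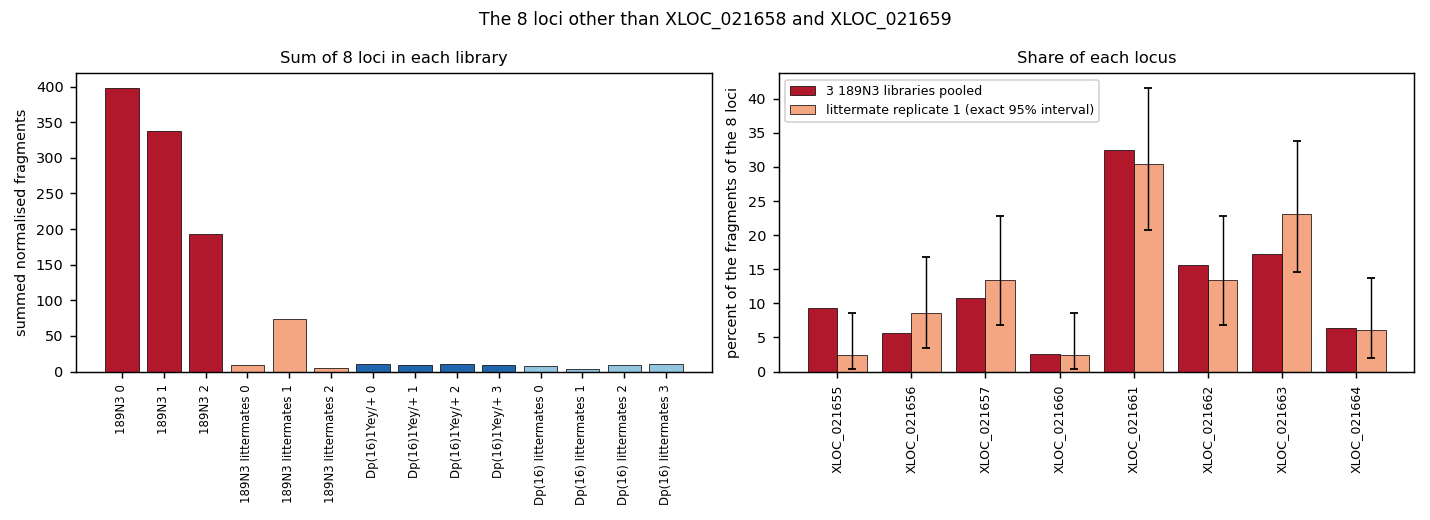
Left, summed normalised fragments of the 8 loci other than XLOC_021658 and XLOC_021659 (vertical axis) in each library. Right, the share of each locus in the fragments of the 8 loci, in percent, for the 3 189N3 libraries pooled and for littermate replicate 1 with its exact 95% interval. The 189N3 bar lies within that interval at 7 of 8 loci, XLOC_021655 being the exception. The intervals are wide, and nothing is read from this count.

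The pattern was then looked for in the whole table, with limits chosen after the values had been seen. A locus was counted where every 189N3 library had more than 4 normalised fragments and each of the 10 libraries other than littermate replicate 1 had less than the lowest 189N3 value divided by 3. Of 59796 loci, 7 met these limits, and all 7 were among the 10 described here: XLOC_021655, XLOC_021656, XLOC_021657, XLOC_021661, XLOC_021662, XLOC_021663 and XLOC_021664. Loci above 0 in the 3 189N3 libraries and at 0 in those 10 numbered 6, of which 3 were XLOC_021655, XLOC_021656 and XLOC_021657. Since the 10 loci had been chosen with the 189N3 difference known, this count describes the table and tests nothing.

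The loci with the numbers next to the group overlapped between 189N3 mice and littermates. XLOC_021654, just before the first of the 10 and also intergenic beside Dscr3, had 70.2, 79.9 and 75.8 normalised fragments in 189N3 mice and 72.8, 73.1 and 114 in littermates. XLOC_021665, just after the last, had 5.08, 8.97 and 4.15 against 7.80, 5.42 and 7.25. In the Dp(16)1Yey model XLOC_021654 had 102, 94.0, 116 and 130 in transgenic libraries and 49.5, 55.4, 56.1 and 64.7 in littermates, without overlap. On the other strand, XLOC_020591, an intergenic locus nearest to Dyrk1a, had 9.31, 7.34 and 20.8 in 189N3 mice and 6.06, 4.51 and 0 in littermates, without overlap. Its 3 neighbours by number there, XLOC_020590, XLOC_020592 and XLOC_020593, overlapped between these groups. XLOC_020591, like XLOC_021661 but unlike the other low loci of the group, was found in all 8 libraries of the Dp(16)1Yey model, at 2.35 to 19.4.

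On the scale of log2(value + 1), the 10 loci numbered before the group had a median fold change of -0.17 in 189N3 mice (9 measured, 0 higher), and the 10 after it had a median of -0.04 (6 measured, 1 higher). All loci had a median of -0.04. The 9 of the 10 unnamed loci that passed the filter ranged from 0.63 for XLOC_021658 to 4.34 for XLOC_021663, although they entered through the libraries in which they were high, and without littermate replicate 1 the range was 0.59 to 5.74. In Dp(16)1Yey/+ mice the medians were 0.49 before the group (10 measured, 10 higher) and 0.56 after it (6 measured, 5 higher), against 0.03 for all loci. Of the 10 before the group 4 did not overlap with the littermates, and of those after it 2. Among 16 named genes listed around Dyrk1a, 12 were measured, of which 0 in 189N3 mice and 8 in Dp(16)1Yey/+ mice were higher without overlap. Over all loci that passed the filter, 1.99% in 189N3 mice and 1.72% in Dp(16)1Yey/+ mice were higher without overlap. The 8 included Ttc3, a ubiquitin ligase, at a log2 fold change of 0.62 (SE 0.15), and Brwd1, a bromodomain protein, at 0.57 (SE 0.13), and by limma none of them passed the adjusted threshold.

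**Figure D3:**
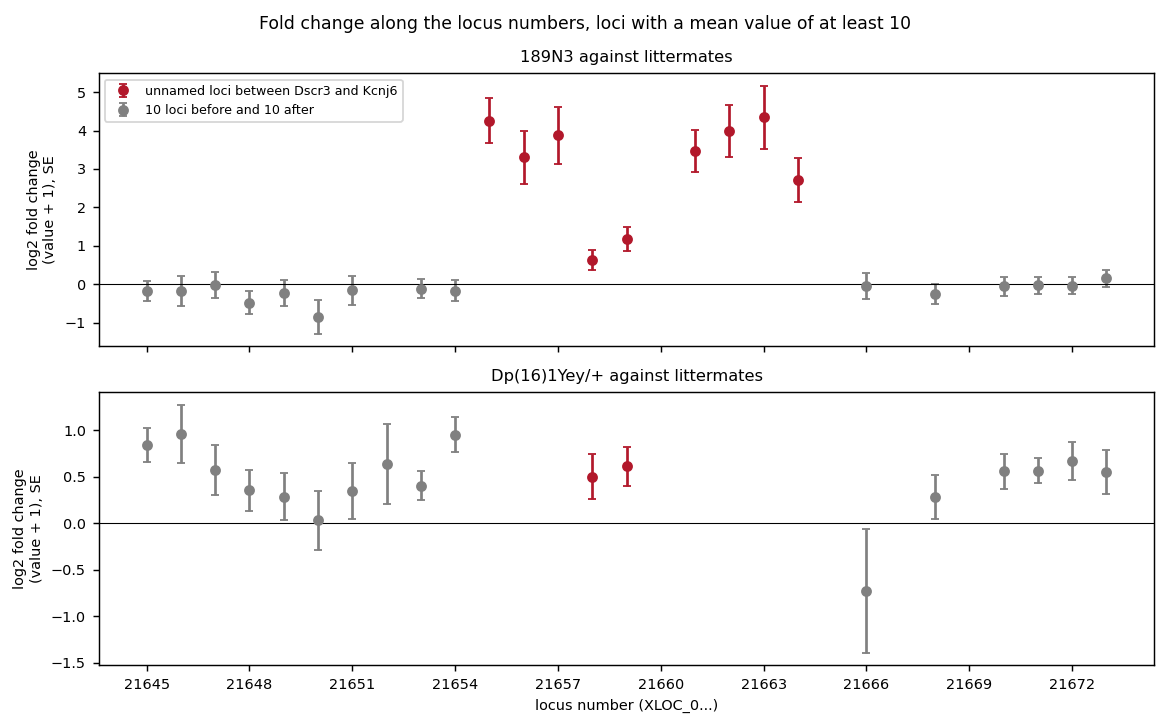
Log2 fold change of value + 1 with its SE (vertical axis) against locus number (horizontal axis) for 189N3 mice (top) and Dp(16)1Yey/+ mice (bottom), each against littermates, with the unnamed loci in red and the 10 loci on either side in grey. In 189N3 mice the red loci lie between 0.63 and 4.34 and the grey ones between -0.86 and 0.15; in Dp(16)1Yey/+ mice XLOC_021658 and XLOC_021659 lie at 0.50 and 0.61 among grey loci mostly above 0.

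XLOC_021658 and XLOC_021659 were present in all 14 libraries, as was XLOC_021661. They differed from the other 8 in having more fragments in every library, without correction for length. XLOC_021659, an intergenic locus nearest to Dyrk1a, had 229, 241 and 124 normalised fragments in 189N3 mice and 60.6, 100.2 and 95.5 in littermates. In Dp(16)1Yey/+ mice it had 102, 103, 144 and 142, and in littermates 86.5, 98.0, 71.2 and 63.7. In both models every transgenic library stood above every littermate, by a narrow margin in Dp(16)1Yey/+ mice. The ratio of fragments in the 189N3 model was 2.41 (interval 2.09 to 2.80), and 2.70 (interval 2.26 to 3.25) without littermate replicate 1. The means in the Dp(16)1Yey model were 123 ± 23.3 and 79.9 ± 15.4 (SD, n = 4 each), a ratio of 1.54. The difference of 0.61 on the log2(value + 1) scale gave p = 0.0286 in an exact two-sided permutation test, which is the smallest p that 4 against 4 libraries allow and was 1 of 4 such tests over all libraries. With limma over all 36024 loci the log2 fold change was 0.61 (SE 0.21) and did not pass, with an adjusted p of 0.909. Replicate 1 of the Dp(16)1Yey/+ libraries had the lowest Dyrk1a of its group. Without it the ratio was 1.62 and the exact permutation p 0.0571, the smallest that 3 against 4 allow.

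XLOC_021658, the locus over Dyrk1a exons on the opposite strand, had the most fragments of the 10 loci in every library, without correction for length. Its values were 5966, 5791 and 3141 in 189N3 mice, 3270, 2897 and 3069 in littermates, 3572, 3744, 5374 and 6803 in Dp(16)1Yey/+ mice, and 4088, 4106, 2613 and 2768 in the littermates of the latter. The groups overlapped in both models, in 189N3 mice through replicate 2, which lay below the highest littermate. The ratio of means in the Dp(16)1Yey model was 1.44 (4873 ± 1522 against 3394 ± 814, SD, n = 4 each), with an exact two-sided permutation p of 0.171. By limma its log2 fold change was 0.50 (SE 0.24), with an adjusted p of 0.909. The isoform table gave the same estimates for both loci, with an adjusted p of 0.945 by limma, where 0.0214% of 60652 isoforms were called.

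Dyrk1a itself had 4248, 3938 and 5877 normalised fragments in 189N3 mice and 2448, 2977 and 2126 in littermates, without overlap. In the Dp(16)1Yey model it had 4781, 2124, 3600 and 3044 against 2488, 2397, 3171 and 3175, with overlap. In 189N3 mice, replicate 2 had the lowest XLOC_021658 and the highest Dyrk1a of its group. The same held for littermate replicate 1, for Dp(16)1Yey/+ replicate 0 and, as a pair, for replicates 2 and 3 of the Dp(16)1Yey littermates. Dp(16)1Yey/+ replicate 1 was low in both. The library kit keeps the strand of the RNA, but the sources used here do not say whether counting used it, so the fragments of Dyrk1a and of a locus over its exons may not be fully told apart.

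The sum of both was therefore also taken, a choice made after the values had been seen, and is given as a description. It was 10214, 9729 and 9019 in 189N3 mice and 5719, 5874 and 5195 in littermates, a ratio of means of 1.73 (1.77 without littermate replicate 1). In Dp(16)1Yey/+ mice it was 8353, 5868, 8974 and 9847, and in littermates 6576, 6503, 5785 and 5943, a ratio of 1.33. Dp(16)1Yey/+ replicate 1 alone lay within the range of the littermates, and without it the ratio was 1.46. In 189N3 mice the SD of the sum was 601 normalised fragments, against 1583 for XLOC_021658 and 1042 for Dyrk1a alone. In their littermates it was 356, against 187 and 430.0, and in Dp(16)1Yey/+ mice 1709, against 1522 and 1111. In the littermates of the latter it was 396, against 814 and 424. The SD of the sum was thus below both in 189N3 mice and in the Dp(16)1Yey littermates, and above both in Dp(16)1Yey/+ mice. These SDs are not divided by the mean, and the sum has the larger mean. In Dp(16)1Yey/+ mice its mean was 8260.5, against 4873 for XLOC_021658 and 3387 for Dyrk1a. No order of relative spread is therefore read from the SDs.

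**Figure D4:**
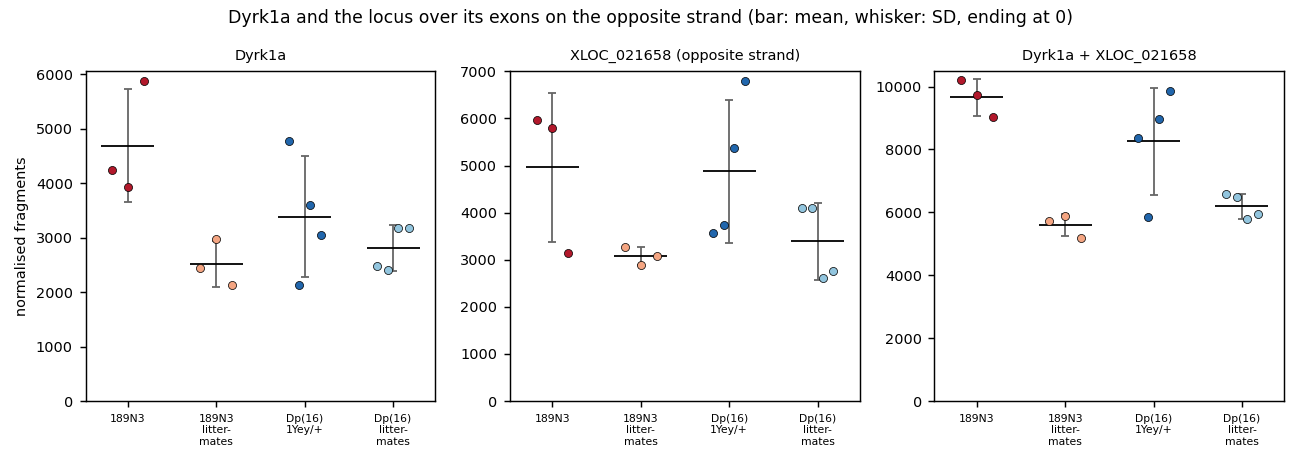
Normalised fragments (vertical axes, starting at 0) of Dyrk1a, of XLOC_021658 on the opposite strand and of their sum in each library, by group, with means as bars and SDs as whiskers. The 189N3 libraries spread from 3938 to 5877 for Dyrk1a and from 3141 to 5966 for XLOC_021658, and lie between 9019 and 10214 for the sum.

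XLOC_021658 took between 34.8% (189N3 replicate 2) and 69.1% (Dp(16)1Yey/+ replicate 3) of the sum. The 10421 loci of the whole table with the code for exonic overlap on the opposite strand took between 10.9% and 24.7% of the fragments of a library, and the lowest and the highest of these libraries were the same 2. With the log2 of this share as a covariate, added after the values had been seen, the Dp(16)1Yey/+ log2 fold change was 0.38 (SE 0.11) for XLOC_021658 and 0.54 (SE 0.13) for XLOC_021659, each with an adjusted p of 0.697 by limma. The part of this share in the levels of Dyrk1a and XLOC_021658 was not tested otherwise.

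**Figure D5:**
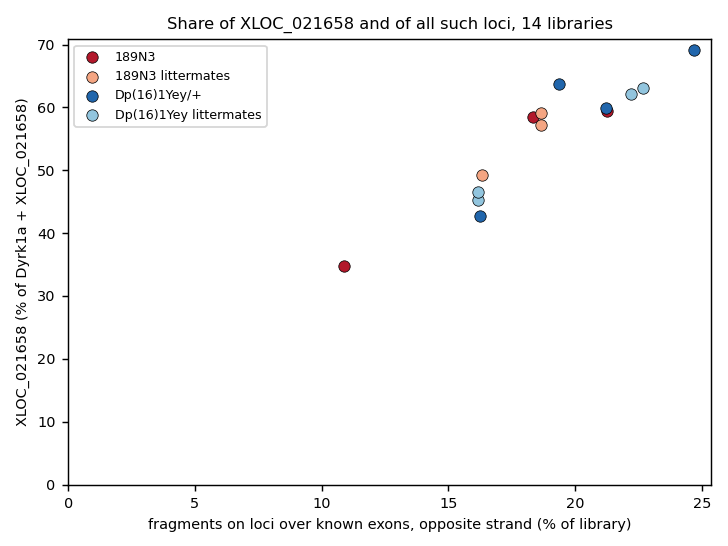
Share of XLOC_021658 in the sum of Dyrk1a and XLOC_021658 (vertical axis, percent) against the share of all loci over known exons on the opposite strand in the fragments of the library (horizontal axis, percent), 1 point per library, coloured by group. The points run from 10.9% and 34.8% to 24.7% and 69.1%, and the groups are interleaved along the run.

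The 8 low loci also varied among the 189N3 libraries. Replicate 2 was the lowest 189N3 library at 9 of the 10 loci and replicate 0 the highest at 6. XLOC_021656 went the other way, with replicate 2 the highest. Relative to Dyrk1a in the same library, the sum of the 8 loci was 9.38%, 8.56% and 3.28% in 189N3 mice, 0.354%, 2.49% and 0.227% in littermates, and between 0.124% and 0.443% in the 8 libraries of the Dp(16)1Yey model. The 3 loci before Dyrk1a held 275 of the 1070 fragments in 189N3 mice and 20 of the 82 in littermate replicate 1, and both stretches were thus present in that library.

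Likeness of pattern was measured over the 14 libraries by Pearson's r on log2(value + 1), for the members with a mean of at least 10, against 36045 loci, as a description of libraries that share their depth and composition. XLOC_021662 was most like XLOC_021663 (r = 0.965), and XLOC_021661 was also most like XLOC_021663 (r = 0.888). The next locus for XLOC_021662 and the third for XLOC_021661 and XLOC_021663 was XLOC_023646, an intronic locus at Zfp955a (r = 0.917, 0.881 and 0.881). XLOC_021661, XLOC_021662 and XLOC_021663 were chosen with their difference in the bacterial artificial chromosome line already known. All of them were highest in the transgenic libraries of that line, so a high r between these members was built into the choice. Nothing is read from the r values between them. XLOC_021658 was most like XLOC_017623 (r = 0.915), which lies over exons of Pdzd2 on the opposite strand, and XLOC_021659 was most like XLOC_034873 (r = 0.846), a locus of repeat sequence near Dram2.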

How the data were processed

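Hippocampi of E16 to E18 embryos were sequenced with a stranded total RNA kit, per the methods (the labels give polyA RNA as the molecule). The authors aligned the reads to mm10 with Bowtie and TopHat and assembled, merged and quantified transcripts with Cufflinks, using the options that correct fragment bias and share out multi-mapping reads (versions not given in the sources used here). Sharing out can bear on the 2 loci coded as repeat sequence. The methods describe removing transcripts absent from GENCODE M4, but the table still holds unnamed loci. The deposited signal values of the gene table are fragments per locus divided by 1 size factor per library. Dividing by the value of 1 fragment gave whole fragments (tolerance 0.001) for 100% of non-zero values. The deposited signal values of the isoform table are on the same scale.

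Loci were matched to the deposited map of class codes and gene names by the sums of their isoforms; 46820 of 59796 matched, all 10 members among them, with the members placed by the matches on both sides. Groups and replicate numbers came from the labels. Transgenic and littermate libraries of a model were compared with limma 3.58.1 (R 4.3.3) on log2(value + 1), mean of at least 10, trend, Benjamini-Hochberg adjustment at 0.05 over all loci, and single loci by exact permutation (SciPy 1.17.1). The fit was tested on simulated data with 3-fold changes, which does not measure its power to find smaller changes. Alternatives were pseudocounts of 0.1 and 10, a minimum mean of 0 or 100, size factors from median ratios, quantile normalization, a replicate block, each library left out, 1 fit of 4 groups, averaged littermates, edgeR 4.0.16 and DESeq2 1.42.0 on recovered fragments, and, chosen after the data were seen, the share of antisense exonic loci as covariate and sums of loci. Named were the 10 loci, Dyrk1a, its listed neighbours and the 3 loci most like each member. The members and lists were chosen with earlier results of these data known. Coordinates come from GENCODE M21 (GRCm38, the assembly mm10). Intervals are exact, at 95%, and the floor was 3 fragments.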

Additional observations from a re-analysis of the deposited data

Results flagged for a closer look

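In groups of 4 libraries, a single library stood far from the other 3 by Dixon's ratio in 4 of 19 groups tested, all at loci with 0 in the other 3 libraries. These were XLOC_021662 at 2.01 normalised fragments in Dp(16)1Yey/+ replicate 3 and at 1.08 in littermate replicate 2, XLOC_021663 at 1.01 in littermate replicate 3, and XLOC_021664 at 1.02 in Dp(16)1Yey/+ replicate 2. Each value stands for 1 or 2 fragments, under the floor of 3. With 0 in the other 3 libraries the ratio takes its largest value whatever the level of the remaining library. The rule thus marks any such library, and nothing is read from the count.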

How the results depend on the processing

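In the Dp(16)1Yey model, 0 of the 10 loci were called under the main setting and under all 20 alternatives. Neither XLOC_021658 nor XLOC_021659 was called in any of them, with adjusted p from 0.374 to 1, and the log2 fold change stayed above 0 throughout. With each library left out it ranged from 0.325 to 0.634 for XLOC_021658 and from 0.514 to 0.718 for XLOC_021659, and under the other alternatives from 0.385 to 0.522 and from 0.538 to 0.621. With the replicate block the log2 fold changes were 0.502 and 0.614 and no call changed. Deviations of same-numbered libraries correlated at -0.031, -0.323 and -0.149 in the 189N3 model and at -0.412, -0.075, -0.446 and -0.156 in the other, so the numbers were not taken as pairs; over the whole table the block moved the count of called loci from 0 to 72 in 189N3 mice and left it at 0 in Dp(16)1Yey/+ mice. Over the whole table of the Dp(16)1Yey model, 0 loci were called, against 2 without a filter, 3 without Dp(16)1Yey/+ replicate 1 and 11 with DESeq2. The exact permutation p of 0.0286 for XLOC_021659 held under both pseudocounts and both scalings. It was 0.125 with the replicate block and 0.0571 in all fits without 1 library. With the nearly alike littermates averaged (replicate 0 with 1, and 2 with 3) it was 0.133. Each of these is the smallest p that the smaller design allows.

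In 189N3 mice, 9 or 10 of the 10 loci were above every littermate under each alternative scaling and with each library left out. The loci were chosen with this difference known, and the share of all loci was not counted under these alternatives. Nothing is therefore read from these counts. The ratio of the 8 summed loci ranged from 7.14 to 44.9 with each library left out, the highest without littermate replicate 1. Fold changes of low loci depend on the pseudocount: XLOC_021655 was at 6.61 with 0.1 and 1.79 with 10 on the log2 scale, against 4.26. Depth limits the low loci: in the Dp(16)1Yey model, 7 of the 8 had at most 3 fragments in any library, XLOC_021661 being the exception with up to 10.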
